A study of Mus musculus with 5 samples.

Results

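Interleukins are secreted proteins through which blood and tissue cells signal to each other, and interleukin receptors are the membrane proteins that bind them. Most of these receptors are built from 2 or more chains, so that 1 chain can serve several cytokines. Early B cells depend on interleukin 7, which is made by stromal cells and read by a receptor on the B-cell precursor. EBF1 is a transcription factor that early B cells need, and chromatin immunoprecipitation with sequencing (ChIP-seq) maps where it sits on the genome.

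Among the 21521 protein-coding genes of the RefSeq annotation of mouse build GRCm38, 83 had a symbol of Il followed by a digit. Il7r and Il2rg were left out by the rule, which left 81 genes. By symbol, 39 of these encode receptor chains, 37 encode ligands and 5 encode other proteins. These 5 are the receptor antagonists Il1rn and Il1f5, the binding protein Il18bp, and the overlapping gene entries Il4i1 and Il4i1b of an amino acid oxidase induced by interleukin 4. An EBF1 site was counted for a gene when its centre lay inside the gene, or when the gene was the nearest protein-coding gene within 100 kb. Where several genes held the centre, the site went to the shortest of them. By this rule 35 of the 7494 EBF1 sites belonged to the 81 genes, and 20 of the genes had at least 1 site.

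The site list came with 1 library, an EBF1 ChIP from pro-B cells. Per the labels, these were Ebf1-/- fetal liver cells transduced with wild-type EBF1 (genotype EBF1 wt), so the EBF1 in them came from the transduced gene. The other 4 libraries of the series (2 inputs, an EBF1 ChIP and a BRG1 ChIP with the EBF1 form YmA) were not analysed here. No replicate stands behind any site. Each site was 300 bp wide, carried no height or p-value, and belonged to 1 of 3 classes, which the authors named CTD-ind, YmA-dep and YmA-ind. The sources used here do not give how the classes were made, and the names serve as labels only. The depth of the library is unknown, so lack of a site does not show lack of binding, and the list holds no expression value against which the cell type could be checked.

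Sites reached the listed promoter (250 bases before to 50 after a start) of 4 of the 64 members that had a promoter sequence in RefSeq (GRCm38.p6), 6.25%, against 3.1% of all 17274 protein-coding genes with one. The 250 bases before the listed start are printed for these 4 because they show how differently the sites lay to the starts. Each is read 5′ to 3′ in the direction of the gene, and capitals mark bases inside the EBF1 site.
Il4i1: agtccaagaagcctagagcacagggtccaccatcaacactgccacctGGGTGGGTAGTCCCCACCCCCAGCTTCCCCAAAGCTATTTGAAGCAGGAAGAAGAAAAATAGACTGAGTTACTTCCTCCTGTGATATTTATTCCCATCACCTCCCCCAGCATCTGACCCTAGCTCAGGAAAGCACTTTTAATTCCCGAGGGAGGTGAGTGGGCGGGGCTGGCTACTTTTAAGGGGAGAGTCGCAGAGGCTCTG
Il5ra: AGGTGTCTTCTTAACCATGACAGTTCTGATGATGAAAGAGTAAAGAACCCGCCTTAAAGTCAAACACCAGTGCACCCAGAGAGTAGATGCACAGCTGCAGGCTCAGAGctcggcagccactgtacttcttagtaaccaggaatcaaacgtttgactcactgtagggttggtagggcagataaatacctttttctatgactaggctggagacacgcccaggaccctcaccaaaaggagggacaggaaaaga
Il6st: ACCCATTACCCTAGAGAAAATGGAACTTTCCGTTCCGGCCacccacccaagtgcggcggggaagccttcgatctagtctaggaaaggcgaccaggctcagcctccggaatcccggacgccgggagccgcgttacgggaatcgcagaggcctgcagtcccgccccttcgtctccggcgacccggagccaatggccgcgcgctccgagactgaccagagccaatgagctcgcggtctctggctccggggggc
Il33: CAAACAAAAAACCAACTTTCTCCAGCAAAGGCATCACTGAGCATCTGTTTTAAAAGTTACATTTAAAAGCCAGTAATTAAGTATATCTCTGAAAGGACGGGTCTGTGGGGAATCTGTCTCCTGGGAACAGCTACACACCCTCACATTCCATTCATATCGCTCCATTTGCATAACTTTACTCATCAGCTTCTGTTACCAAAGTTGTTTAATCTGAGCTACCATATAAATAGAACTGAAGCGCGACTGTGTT
The Il4i1 window is chr7:44836038-44836287 on the plus strand and the Il5ra window is chr6:106749038-106749287 on the minus strand. The Il6st window is chr13:112463820-112464069 and the Il33 window is chr19:29945540-29945789, both on the plus strand.

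These promoters were searched for the core of the EBF recognition sequence, TCCC and GGGA parted by any 2 bases, and for the shorter CCCNNGGG inside it. Both read the same on either strand, and every match of the longer is also a match of the shorter. Of the 4 promoters, that of Il4i1 held the longer core, at position -61 from the start and inside the CTD-ind site, shown here in capitals with its flanks.
Il4i1 core: cacttttaatTCCCGAGGGAggtgagtggg
No match lay in the 300-base promoter windows of Il5ra, Il6st and Il33, of which the sites at Il5ra and Il6st cover only a part. Over all genes with a promoter sequence, 1.13% held the longer and 17.8% the shorter letters, and over the 536 genes whose promoter a site reached these shares were 11.2% and 50.7%. The shorter letters were found in 9 of the 64 member promoters (14.1%): Il1b, Il1r1, Il6ra, Il11ra2, Il12rb2, Il16, Il17rb, Il20ra and Il4i1. Among those 9, a site reached the promoter of Il4i1 alone.

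Receptor genes carried EBF1 sites more often than ligand genes in this list. Of the 39 receptor genes 14 had a site, a share of 35.9% (95% exact binomial interval 21.2 to 52.8%). Of the 37 ligand genes 5 had one, 13.5% (4.54 to 28.8%), while the share over all protein-coding genes was 19.6%. The intervals of receptors and ligands overlap, cover counting error only, and treat neighbouring genes as independent. No test was run, because the genes are not replicates and were chosen with earlier results of these data known. With 2 or more sites there were 6 receptor genes and 2 ligand genes, against 6.78% of all genes. The receptor genes held 26 sites in all and the ligand genes 8.

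**Figure D1:**
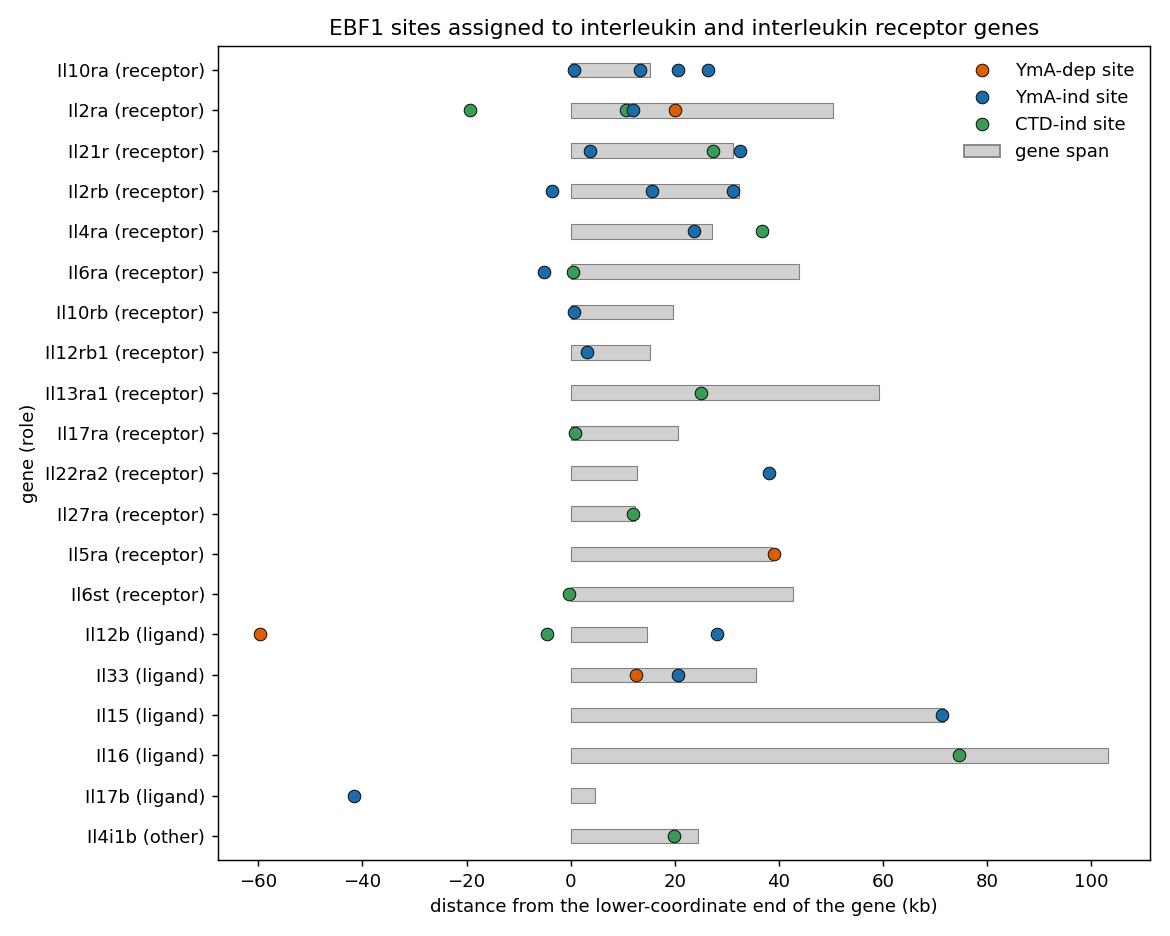
Each grey bar is the span of a gene with at least 1 assigned EBF1 site, drawn to scale from its lower-coordinate end (x axis, kb), and each point is the centre of a site, coloured by the authors' class. Il10ra and Il2ra have 4 sites each, most receptor sites lie inside or beside the gene, and the sites of Il12b and Il17b lie outside it.

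The chains of the interleukin 2, 4 and 13 receptors held 13 of the 26 receptor sites, at 5 of 8 genes. That was 62.5% (95% exact interval 24.5 to 91.5%), against 19.6% of all protein-coding genes. Il2ra on chromosome 2 encodes the alpha chain that gives the interleukin 2 receptor its high affinity, and it had 4 sites of all 3 classes. A CTD-ind site (11623273 to 11623572) lay 19.4 kb before the gene. Inside the gene lay a CTD-ind site (11653237 to 11653536), a YmA-ind site (11654563 to 11654862) and a YmA-dep site (11662647 to 11662946), at 10.6, 11.9 and 20.0 kb after the listed start. These 3 inner sites thus formed 1 run of 9.71 kb inside the gene. Il15ra, which adjoins Il2ra and encodes the private chain of the interleukin 15 receptor, had none; its nearest site was the YmA-dep site in Il2ra, 42.4 kb away.

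Il2rb on chromosome 15 encodes the beta chain shared by the interleukin 2 and interleukin 15 receptors. It had 3 sites, all YmA-ind. They lay 3.54 kb outside the gene (78475569 to 78475868), inside it (78494740 to 78495039), and inside it 1.24 kb from its other end (78510228 to 78510527). At this gene, unlike Il2ra, 1 class made up the whole set.

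Il4ra and Il21r lie side by side on chromosome 7 and encode the chains that bind interleukin 4 and interleukin 21. Together they had 5 sites in 60.0 kb. Il4ra had a YmA-ind site inside the gene (125575831 to 125576130) and a CTD-ind site (125588826 to 125589125) 9.50 kb past it, towards Il21r. That site was 14.3 kb from Il21r, so its assignment between the neighbours rests on distance alone. Il21r had YmA-ind sites 3.52 kb after its listed start (125606798 to 125607097) and 1.29 kb past its far end (125635540 to 125635839). Between these, a CTD-ind site (125630352 to 125630651) lay inside the gene. Il13ra1, a chain of the receptor for interleukins 4 and 13, had a CTD-ind site on chromosome X (36136998 to 36137297), 25.0 kb into the gene. Il9r and the decoy receptor gene Il13ra2 had no site.

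Among the receptors of the interleukin 6 and 12 family, 4 of 9 genes had a site (44.4%, 95% exact interval 13.7 to 78.8%), against 19.6% of all protein-coding genes. Of the 9 genes, 3 had a site within 1 kb of an end, against 5.08% of all protein-coding genes. Among the 4213 protein-coding genes with any site, 1094 had one there. Il6st encodes gp130, the signalling chain shared by interleukin 6 and its relatives. Its site, of the CTD-ind class (chromosome 13, 112463560 to 112463859), lay with its centre 361 bp upstream of the listed start, so that 40 bases of it fell in the printed promoter. Il6ra, the gene of the chain that binds interleukin 6, was met at the other end. Its CTD-ind site on chromosome 3 (89869589 to 89869888) lay 414 bp inside the gene but 43.5 kb after the listed start. A YmA-ind site (89864147 to 89864446) followed 5.03 kb outside the same end, 5.45 kb from the neighbouring gene She, in a run of 3 sites.

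Il27ra, a chain of the interleukin 27 receptor, had a CTD-ind site on chromosome 8 (84042016 to 84042315), 435 bp inside an end and 902 bp from the neighbouring gene Rln3. Il12rb1, a chain of the receptors for interleukins 12 and 23, had a YmA-ind site (70811279 to 70811578) 3.07 kb inside an end. Its partners Il12rb2 and Il23r had none, and their nearest sites were 179 and 63.7 kb away. Il11ra1, Il11ra2 and Il31ra also had none; Il11ra1 and Il11ra2 are close paralogs, so the placing of reads between them is uncertain.

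The receptors of the interleukin 10 family had sites at 3 of 6 genes (50.0%, 95% exact interval 11.8 to 88.2%), against 19.6% of all protein-coding genes. All 6 of these sites were YmA-ind, the class of 53.6% of all assigned sites. Il10ra on chromosome 9 encodes the chain that binds interleukin 10 and had 4 of them. Its sites lay inside the gene 651 bp from one end (45254339 to 45254638) and 1.91 kb from the other (45267087 to 45267386). Further sites lay 5.26 kb (45274264 to 45274563) and 11.1 kb (45280102 to 45280401) outside the second of these ends. With a site nearest to BC049352 these made a run of 5 YmA-ind sites over 34.5 kb.

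Il10rb, the partner chain, had a site on chromosome 16 (91406682 to 91406981), 674 bp inside an end and 1.24 kb from the interferon receptor gene Ifnar2. Il22ra2, which encodes a soluble receptor that binds interleukin 22, had its site on chromosome 10 (19660037 to 19660336) 25.5 kb away. It was the only receptor gene whose sites all lay beyond 20 kb, and with all annotated genes as candidates it had no site. Il20ra, Il20rb and Il22ra1 had no site.

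For the interleukin 3 and 5 receptors, Il5ra had a site and Il3ra had none. Il5ra encodes the chain that binds interleukin 5, a cytokine of eosinophils and of mouse B-1 cells. Its YmA-dep site on chromosome 6 (106749180 to 106749479) was centred 292 bp upstream of the listed start, and 108 bases of it fell in the printed promoter. Of the 4 YmA-dep sites of members, it alone lay within 1 kb of a gene end. Over all assigned sites, 33 of 796 YmA-dep sites lay that near. Il3ra was 158 kb from the nearest site, beyond the 100 kb limit, whereas the farthest assigned site of any member lay at 59.7 kb.

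Few of the interleukin 1 and 17 receptor genes had a site. None of the 9 receptor genes of the interleukin 1 family had a site (95% exact interval up to 33.6%), and 1 of the 5 interleukin 17 receptor genes did. Together this was 1 of 14 (7.14%, 0.181 to 33.9%), against 13 of 25 (52.0%, 31.3 to 72.2%) for the class I and II receptors described above. The share over all protein-coding genes, 19.6%, lies inside the interval of the interleukin 1 and 17 receptors and below that of the class I and II receptors. This split by family was chosen after the data were seen and was not tested.

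The site of the interleukin 17 receptors was at Il17ra, the chain that the family shares. It was a CTD-ind site on chromosome 6 (120463867 to 120464166), 835 bp inside an end. Il17rb, Il17rc, Il17rd and Il17re had none, though sites of other genes lay 16.1 kb from Il17rc and 14.4 kb from Il17re. The interleukin 1 family holds the receptors for interleukins 1, 18, 33 and 36. Of its genes, Il1r2, Il1r1, Il1rl2, Il1rl1, Il18r1 and Il18rap lie in a row on chromosome 1 (40084692 to 40551707), and no EBF1 site was found in those 467 kb. The rate over all genes was 3.81 sites per Mb of assigned chromosome. The nearest site was 57.3 kb from Il1r2, assigned to Map4k4. Il1rap was 623 kb from any site. Il1rapl1 and Il1rapl2, very long genes on chromosome X whose proteins act at synapses, were 5516 and 1653 kb from one.

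**Figure D2:**
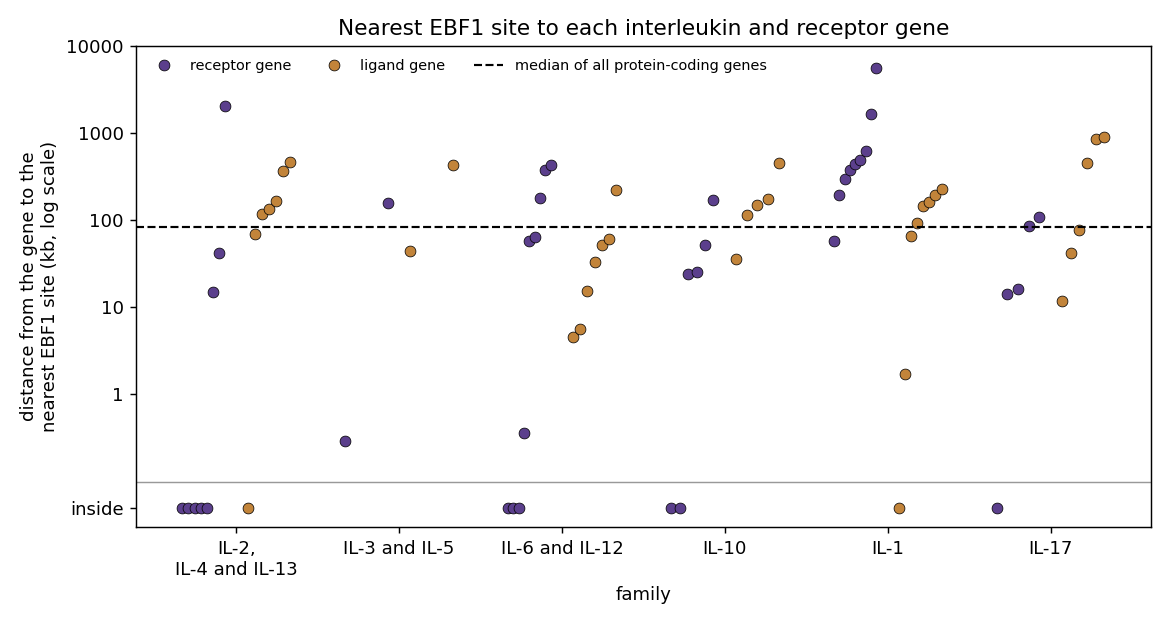
Distance in kb on a log scale (y axis) from each receptor gene (purple) and ligand gene (orange) to the nearest EBF1 site, whatever gene that site was assigned to, by family (x axis); points on the lowest line have a site inside. The 9 receptor genes of the interleukin 1 family lie between 57.3 and 5516 kb, and the dashed line is the median of all protein-coding genes, 82.8 kb.

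Ligand genes with a site were spread over the families. Il12b on chromosome 11, which encodes the p40 subunit of interleukins 12 and 23, had the most, 3 sites of 3 classes, none inside the gene. A YmA-dep site (44340257 to 44340556) lay 59.7 kb and a CTD-ind site (44395404 to 44395703) 4.51 kb upstream of its start, and a YmA-ind site (44428005 to 44428304) 13.5 kb past its end. Ebf1 itself begins beyond Il12b on the same chromosome. The 3 sites were 278, 223 and 190 kb from the Ebf1 gene, so they were nearer to Il12b in each case.

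Il33 on chromosome 19 encodes an interleukin 1 family cytokine of tissue cells. It had a YmA-dep site (29937523 to 29937822) and a YmA-ind site (29945515 to 29945814) within 8.29 kb, both inside the gene. The second was centred 126 bp upstream of a listed start within the gene and covered all 250 bases of the promoter printed above. The first lay 8118 bp upstream of that start.

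Il15, the gene of a cytokine that sustains natural killer and memory T cells, had a YmA-ind site on chromosome 8 (82402794 to 82403093), 309 bp inside an end. Il16, a chemoattractant of CD4+ cells outside the main families, had a CTD-ind site on chromosome 7 (83717281 to 83717580) inside its 103 kb span, 15.0 kb after the nearest listed start. Il17b had a YmA-ind site on chromosome 18 (61646176 to 61646475) 41.6 kb away, which overlapped the long non-coding RNA genes Bvht and Carmn. With all annotated genes as candidates, that site was no longer assigned to Il17b.

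The other 32 ligand genes had none. Il7, the cytokine of early B cells, was 68.7 kb from the nearest site, a CTD-ind site assigned to Zc2hc1a. In the interleukin 2, 4 and 13 group, Il2, Il4, Il9, Il13 and Il21 had no site, and of the group's 7 genes Il15 alone had one. No site was found between Il4 and Il5 on chromosome 11 (53612460 to 53725103), a stretch that also holds Il13. There was also none from Il24 through Il20 and Il19 to Il10 on chromosome 1, between Il17a and Il17f, or between Il2 and Il21. On chromosome 2 there was none among Il1f8, Il1f9, Il1f6 and Il1f10 or between Il1a and Il1b. Over all genes there were 3.81 sites per Mb of assigned chromosome, so stretches this short will often hold none. Il3, Il6, Il11, Il12a, Il18, Il22, Il25, Il27, Il31, Il34, Il17c and Il17d, placed elsewhere, also had none. Il1a and Il23a had sites 1.71 and 5.59 kb away that were nearer to Ckap2l and Pan2.

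Of the 5 other members, Il4i1b was assigned 1 site, the CTD-ind site on chromosome 7 (44836085 to 44836384) that holds the core printed above. It was centred 54 bp upstream of the start of Il4i1, which lies almost wholly within Il4i1b, so the split between the entries is a matter of the annotation. A further YmA-ind site inside Il4i1b (44819021 to 44819320) was also inside the shorter gene Nup62 and was assigned to that gene. Il1rn, Il1f5 and Il18bp had none.

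**Figure D3:**
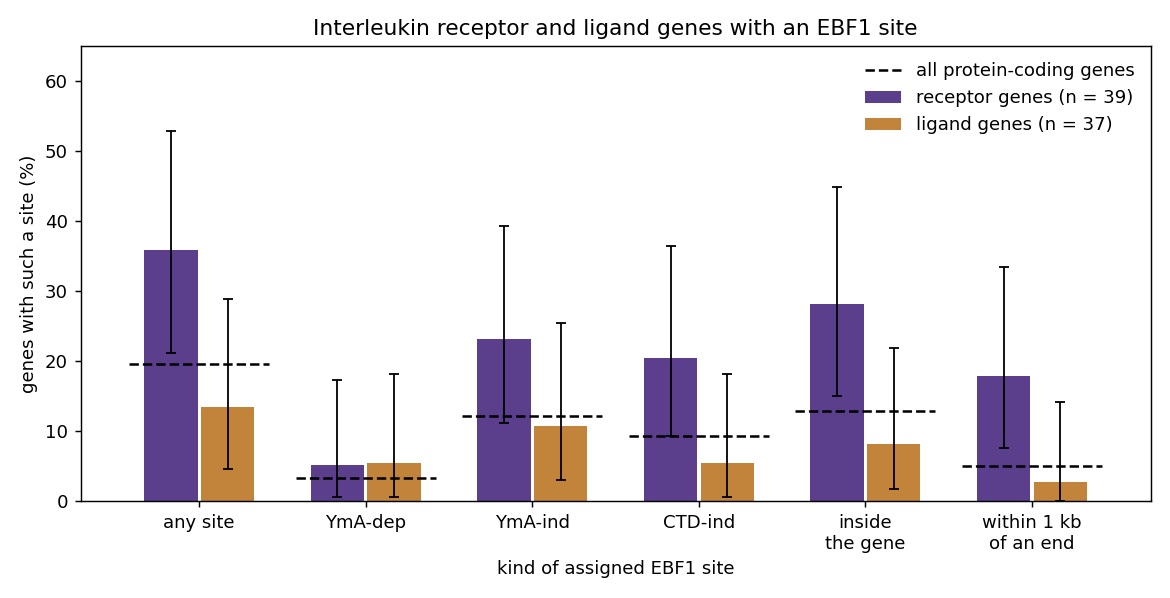
Share of the 39 receptor genes (purple) and 37 ligand genes (orange) with an assigned site of each kind (y axis, %); whiskers are exact 95% binomial intervals and dashed lines the share of all 21521 protein-coding genes. Receptor genes stand at 35.9% and ligand genes at 13.5% for any site, and both at about the same height for YmA-dep sites.

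By position, receptor sites lay inside genes about as often as all sites. A site inside the gene was assigned to 11 receptor genes (28.2%) and 3 ligand genes (8.11%), against 12.9% of all genes. A site within 1 kb of an end was assigned to 7 receptor genes (17.9%) and 1 ligand gene (2.7%), against 5.08% of all genes. The 7 were Il5ra, Il6st, Il6ra, Il27ra, Il10ra, Il10rb and Il17ra, with 4 CTD-ind, 2 YmA-ind and 1 YmA-dep sites. CTD-ind was also the most frequent class over all 1140 assigned sites within 1 kb of an end. Of those, 722 were CTD-ind, 385 YmA-ind and 33 YmA-dep. The shares of genes given above also reflect that more receptor genes had any site. Among the 26 receptor sites, 16 (61.5%) were inside the gene, 7 (26.9%) were within 1 kb of an end and 3 (11.5%) lay more than 10 kb outside. Among the 8 ligand sites these numbers were 4, 1 and 3. Over all 7082 sites assigned to a gene, 59.6% were inside, 16.1% within 1 kb of an end and 20.5% more than 10 kb outside. From site centre to the nearest gene end, the median was 3.62 kb for receptor sites, 14.3 kb for ligand sites and 10.2 kb for all assigned sites.

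By class, the sites at these genes were close to the whole list. The receptor sites comprised 15 YmA-ind (57.7%, 36.9 to 76.6%), 9 CTD-ind (34.6%, 17.2 to 55.7%) and 2 YmA-dep (7.69%, 0.946 to 25.1%). Over all assigned sites the YmA-ind share was 53.6%, the CTD-ind share 35.1% and the YmA-dep share 11.2%, which lies inside each of these intervals. Of the 8 ligand sites, 4 were YmA-ind and each other class had 2, too few to set apart. Counted by gene, YmA-ind sites were at 9 receptor and 4 ligand genes (12.2% of all genes have one). CTD-ind sites were at 8 receptor and 2 ligand genes (9.32% of all genes). YmA-dep sites were at 2 receptor genes, Il2ra and Il5ra, and 2 ligand genes, Il12b and Il33 (3.26% of all genes). Of the 8 members with more than 1 site, 6 mixed classes, and Il10ra and Il2rb held YmA-ind sites only. How many of all 1459 genes with 2 or more sites mixed classes was not counted. The numbers for members are thus a description, not a trait of these genes.

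Receptor genes are longer than ligand genes, and a longer gene has more room for a site. The median span was 35.3 kb for receptors, 6.60 kb for ligands and 17.4 kb for all protein-coding genes. The median stretch of chromosome that the rule assigned to a gene was 65.9, 38.9 and 44.3 kb. Per Mb of that stretch there were 4.55 sites at receptor genes, 3.71 at ligand genes and 3.81 over all genes. The receptor value rested on Il1rapl1 and Il1rapl2, which made up 2.98 of the 5.71 Mb assigned to receptors and held 0 sites. Without them, an alternative chosen after the data were seen, it was 9.53 sites per Mb.

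All protein-coding genes were therefore split into quintiles by the length of this stretch, and their share with a site rose from 9.13% in the shortest quintile to 29.6% in the longest. In the 3 shorter quintiles, up to 60.4 kb, 9 of 18 receptor genes (50.0%) and 1 of 24 ligand genes (4.17%) had a site, against 14.6% of all genes there. In the 2 longer quintiles together, 5 of 21 receptor genes (23.8%) and 4 of 13 ligand genes (30.8%) had a site, against 27.1%. Joining the quintiles in this way was not part of the plan, and the contrast was not tested. The order turned in the longest quintile alone, with 0 of 7 receptor and 2 of 3 ligand genes, against 29.6%. In quintile 4 it held, with 5 of 14 receptor and 2 of 10 ligand genes, against 24.5%. The receptors with longer stretches included 7 of the 9 interleukin 1 family genes without a site.

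**Figure D4:**
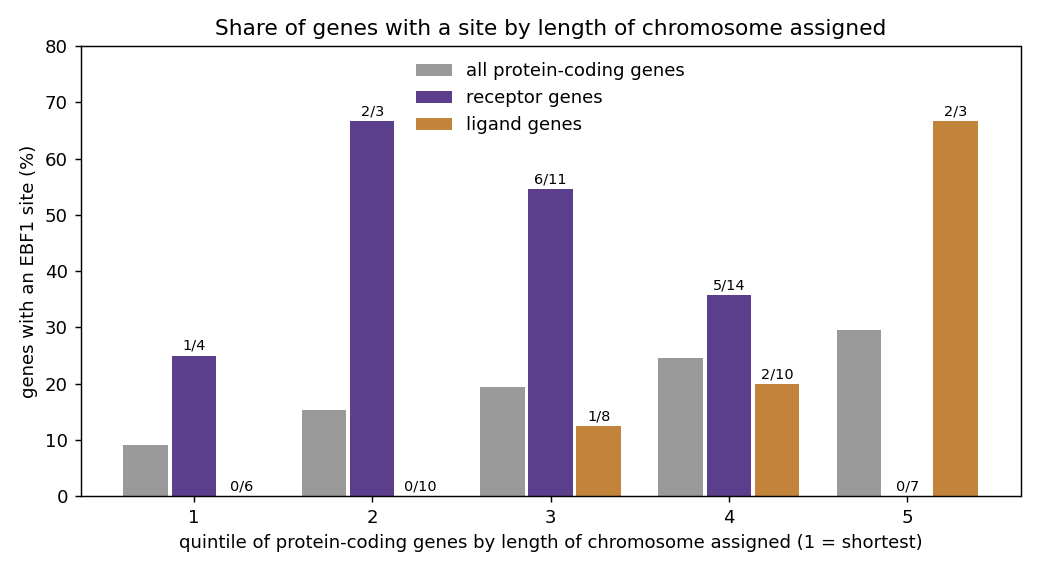
Share of genes with an EBF1 site (y axis, %) in each quintile of protein-coding genes ordered by the length of chromosome assigned to them (x axis); labels give members with a site over members in the quintile. Grey bars rise from 9.13 to 29.6%, receptor genes exceed them in the first 4 quintiles and stand at 0 of 7 in the longest, and ligand genes exceed them in the longest only.

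Relatives without an Il symbol were counted by the same rule. Of 15 other class I and II cytokine receptor genes 6 had a site (40.0%), and of 16 other cytokine genes of these classes 3 did (18.8%), against 19.6% of all protein-coding genes. Ifnar1, a chain of the type I interferon receptor, had 3 sites of 3 classes, Ifnlr1, of the interferon lambda receptor, had 2 CTD-ind sites, and Lifr, of the receptor for leukaemia inhibitory factor, had 1 YmA-ind and 1 YmA-dep site. Among the cytokines, Lif had 3 sites and Osm and Ifnl3 had 1 each. Of 8 adaptor and kinase genes that act behind the interleukin 1 and 17 receptors, Irak2 alone had a site, a YmA-ind site inside the gene. The shares of the cytokine and adaptor lists were thus near or below that of all genes. Myd88, the adaptor of the interleukin 1 receptors, was 12.99 kb from one.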

How the data were processed

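Bowtie2, SAMtools, deepTools and build GRCm38 (mm10) are listed in the submitters' processing notes. For the peak caller, its threshold and the origin of the classes, the sources used here give nothing. The deposited file, per its header, gives chromosome, start, end, name and class of 7494 sites, in bp, with no score. Positions are printed 1-based. Genes came from RefSeq GRCm38.p6; entries on unplaced or alternate scaffolds, Y and the mitochondrion were left out, which kept 49209 genes. Each site centre went to the shortest of the protein-coding genes that held it, otherwise to the nearest within 100 kb. Starts and strands came from the RefSeq promoter sequences, which 64 of the 81 members had. The nearest listed start was used. For 5181 of the 17274 genes with such a sequence, a listed start lay, to the base, at the matching end of the RefSeq span. Distances to starts and to gene ends can therefore differ. A run joined sites with gaps under 12.5 kb. The stretch assigned to a gene was measured on a grid of 100 bp. The planned name rule took every member with a site and up to 5 relatives with a site a list, those with the most sites first. Of the receptor relatives, only those with more than 1 site were named. Myd88 and the distances of genes without a site were given outside that rule. Members, roles, families and lists were chosen with earlier results of these data known. The assignment was tested on simulated sites. Shares have 95% Clopper-Pearson (exact binomial) intervals, which cover counting error alone. Python 3.11.15, pandas 2.3.3, NumPy 2.4.6, SciPy 1.17.1 and matplotlib 3.10.9 were used.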

Additional observations from a re-analysis of the deposited data

How the results depend on the processing

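The higher share at receptor genes kept its direction under every assignment tried. Receptor genes with a site numbered 13 within 20 kb (17.9% of all genes), 15 with no distance limit (20.0%), 13 with any gene type as candidate, and 13 when sites inside or within 10 kb counted for every gene (22.3% of all genes); ligand genes numbered 4, 5, 4 and 6. With the nearest listed start, 10 of 32 receptor and 4 of 27 ligand genes had a site. The share of all genes is not given for this setting, any gene type as candidate, without X or groups of neighbours. Those counts set receptors beside ligands only. Without X, 13 of 35 receptor genes had a site, and without decoy and receptor-like genes 13 of 34. Taking 1 gene per group of neighbours gave 13 of 28 against 5 of 26. That cut receptor genes from 39 to 28 but those with a site from 14 to 13. It thus mostly removed genes without a site and cannot show how far neighbours were independent. With 1 site per run, the receptor sites fell from 26 to 17, because runs were reduced to their first site; Il10ra and Il6ra then had none. Il17b and Il22ra2 had none within 20 kb or with any gene type as candidate. The shorter letters CCCNNGGG, which every match of the longer contains, raised promoters with a match from 1 to 9 for members, 0 to 6 for receptors and 0 to 2 for ligands. Sites per Mb of assigned chromosome at receptor genes went from 4.55 to 9.53 without Il1rapl1 and Il1rapl2, whose long stretches held none. With 1 site per run, the receptor class shares went from 57.7 to 47.1% for YmA-ind and from 34.6 to 47.1% for CTD-ind. For YmA-dep the change was from 7.69 to 5.88%. Class shares stayed within their intervals under each alternative run. The intervals are wide and the alternatives count mostly the same sites, so this says little about how stable the shares are. No paired analysis was possible because each group holds 1 library. A stricter threshold was not run, since the list holds no score. Unknown read depth limits every statement about genes without a site.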
